A study of Mus musculus with 2 samples.

Results

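The 10 genes described here encode the MAP kinase phosphatases, a family of dual specificity phosphatases (DUSP). They were chosen by name, as Dusp1, Dusp2, Dusp4, Dusp5, Dusp6, Dusp7, Dusp8, Dusp9, Dusp10 and Dusp16, and all 10 were found among the 54713 rows of the deposited gene table. RNA was measured in SV40 MES13, a mouse kidney line that the labels call mesangial and that carries SV40 sequences. Cells had been infected with a lentivirus for the long noncoding RNA AI662270 (group Lv_AI662270, labelled as overexpressing it) or with a control lentivirus (group Lv_NC, labelled WT), and both were otherwise untreated. Both sublines were selected with 0.5 mg/ml puromycin, kept in 0.25 mg/ml puromycin and grown in medium with 10% serum. The labels do not say whether a subline is a clone or a pool, and their note on a check of stable expression names Sox9, not AI662270. Each group held 1 library, so there is no spread between replicates, no test was possible, and every difference below is between these 2 libraries.

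MAP kinase phosphatases remove phosphate from both the threonine and the tyrosine that activate a MAP kinase, and so switch off ERK, JNK and p38. They fall into 3 types: nuclear enzymes encoded by genes that growth factors and stress induce quickly (Dusp1, Dusp2, Dusp4 and Dusp5), cytoplasmic enzymes selective for ERK (Dusp6, Dusp7 and Dusp9), and enzymes that prefer JNK and p38 (Dusp8, Dusp10 and Dusp16). Many of these genes are themselves induced by the kinases that their products inactivate, which makes them parts of negative feedback loops. In mesangial cells, MAP kinase signalling is known for its part in proliferation and matrix production.

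The promoters of the members that differed most, and of 2 members for comparison, are shown here because the genes of this family are known for induction through short elements near their start sites. The windows are those of RefSeq in build GRCm38.p6, from 250 bases before to 50 bases after the start site, and 8 of the 10 members had one (not Dusp4 and Dusp9). The windows of Dusp10 (chr1:184034131-184034430) and Dusp8 lie inside the gene spans of the deposited table. Sequence at the deposited starts of these genes was therefore not searched. Each is written 5′ to 3′ on the strand of the gene. Capitals mark the letters of the cyclic AMP response element (CRE, TGACGTCA), of its first 5 letters alone (the short CRE, TGACG), of the AP-1 site TGANTCA and of the CArG box bound by serum response factor, searched on both strands. Every full CRE holds a short CRE on each strand. The Dusp1 window lies at chr17:26508423-26508722 on the minus strand, Dusp5 at chr19:53528895-53529194 on the plus strand, Dusp2 at chr2:127335909-127336208 on the plus strand, Dusp8 at chr7:142095235-142095534 on the minus strand and Dusp7 at chr9:106368382-106368681 on the plus strand.
Dusp1: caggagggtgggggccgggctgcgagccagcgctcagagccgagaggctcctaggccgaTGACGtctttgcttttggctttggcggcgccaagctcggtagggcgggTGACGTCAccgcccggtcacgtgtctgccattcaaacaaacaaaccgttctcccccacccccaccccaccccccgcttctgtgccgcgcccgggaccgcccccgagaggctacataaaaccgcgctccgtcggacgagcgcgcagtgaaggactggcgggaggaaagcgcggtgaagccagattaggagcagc
Dusp5: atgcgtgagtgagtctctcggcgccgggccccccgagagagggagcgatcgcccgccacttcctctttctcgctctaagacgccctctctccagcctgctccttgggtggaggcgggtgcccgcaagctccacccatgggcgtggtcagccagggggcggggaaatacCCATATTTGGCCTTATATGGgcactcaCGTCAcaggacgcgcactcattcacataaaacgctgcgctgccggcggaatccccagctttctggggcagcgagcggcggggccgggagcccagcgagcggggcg
Dusp2: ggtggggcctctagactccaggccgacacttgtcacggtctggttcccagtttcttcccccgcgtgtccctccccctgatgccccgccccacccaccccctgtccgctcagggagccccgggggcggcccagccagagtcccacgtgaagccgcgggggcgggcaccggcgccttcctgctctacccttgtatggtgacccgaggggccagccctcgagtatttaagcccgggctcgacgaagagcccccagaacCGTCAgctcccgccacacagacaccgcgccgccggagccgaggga
Dusp8: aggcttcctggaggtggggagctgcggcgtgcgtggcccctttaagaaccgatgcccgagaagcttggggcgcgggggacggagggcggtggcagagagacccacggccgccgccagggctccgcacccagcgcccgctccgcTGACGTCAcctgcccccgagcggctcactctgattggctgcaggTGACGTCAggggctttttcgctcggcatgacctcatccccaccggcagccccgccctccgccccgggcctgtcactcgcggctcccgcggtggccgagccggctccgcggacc
Dusp7: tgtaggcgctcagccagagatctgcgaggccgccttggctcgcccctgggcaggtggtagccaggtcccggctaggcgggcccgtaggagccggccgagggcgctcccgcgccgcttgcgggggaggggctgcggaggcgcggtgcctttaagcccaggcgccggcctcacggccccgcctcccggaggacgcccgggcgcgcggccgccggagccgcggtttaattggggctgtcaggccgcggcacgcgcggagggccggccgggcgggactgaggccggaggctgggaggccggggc

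The full CRE was found in 2 of the 8 windows, once in Dusp1 (starting 143 bases before the start site) and at 2 places in Dusp8 (107 and 63 bases before it), whereas 1.79% of all 32851 RefSeq windows held it. The short CRE was found in 5 of the 8 windows, against 20.8% of all windows. Dusp1, Dusp2 and Dusp5, the genes described next as lower, each held at least 1 short CRE, and so did Dusp8 and Dusp16. In Dusp2 that match lies after the start site. The CArG box was found in Dusp5 alone of the 8, as 2 abutting matches that start 82 and 72 bases before the start site, against 1.63% of all windows. No match to the AP-1 site, to the strict ETS motif CCGGAA or to TATAAA was found in the 8 windows, against 7.81%, 14.9% and 13.6% of all windows. Shorter ETS motifs were not searched. The GC box GGGCGG was in 7 of 8 windows, against 35.7%, and an NF-kB motif (GGGA, then 4 bases of any kind, then CC) in 4 of 8, against 20.7%. Matches to the GC box and the NF-kB motif overlap each other in Dusp1 and, by 1 base, in Dusp5, where the NF-kB match also shares 1 base with a CArG box. The median GC content was 67.8% in the members' windows and 52.7% in all windows. A match to these letters is a description of the sequence and does not show that a factor was bound.

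**Figure D1:**
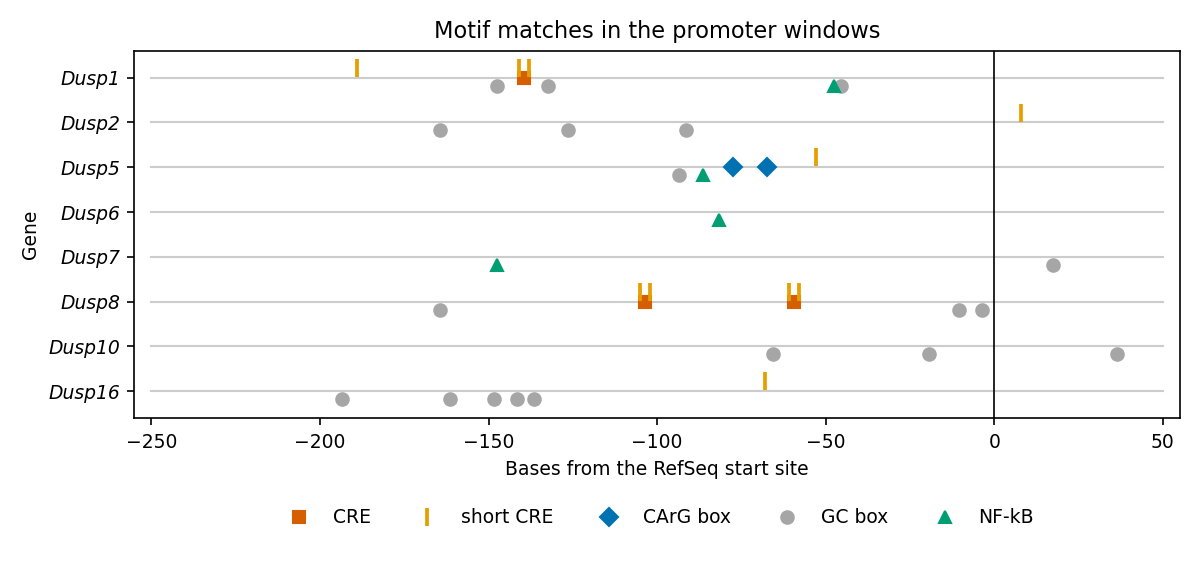
Position of motif matches in the promoter windows of 8 MAP kinase phosphatase genes, in bases from the RefSeq start site (vertical line), with 1 row per gene and 1 symbol per motif. Full CRE matches are seen in Dusp1 and Dusp8 and CArG boxes in Dusp5, while Dusp6, Dusp7 and Dusp10 show neither of these nor a short CRE.

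In total 15727023 counts were assigned to genes with the control virus and 15062482 with the AI662270 virus. AI662270 itself was at 0 counts with the control virus, where 3 counts, or 0.197 CPM (counts scaled to a common library size), are the upper limit that a count of 0 allows. With its own virus it had 241 counts or 15.5 CPM. Of 7 mesangial and pericyte markers only 3 were measured (a mean of at least 1 CPM), and Itga8 and Ren1 had 0 counts in both libraries. Their summed level was 19.3 CPM with the control virus and 27.8 CPM with the AI662270 virus, of which Pdgfrb gave 12.2 and 21.7 CPM, while Gata3 was called lower with 76 and 25 counts. The genes of the other lists went different ways. Tubular epithelial markers (4 of 7 measured, Umod and Aqp2 at 0 in both) summed to 376 and 223 CPM, and podocyte markers (2 of 5 measured, Nphs1 at 0) to 149 and 83.2 CPM. Epcam (185 and 104 CPM), Cdh1 (143 and 66.1 CPM) and Podxl (123 and 42.4 CPM) made up most of those sums, whereas Cubn was at 2.17 and 4.69 CPM, Lrp2 at 45.6 and 47.5 CPM and Synpo at 25.9 and 39.4 CPM. Leukocyte markers (2 of 5 measured, Adgre1 and Itgam at 0) summed to 34.4 and 14.6 CPM, mostly Csf1r at 27.6 and 9.63 CPM. Of 5 endothelial markers 0 were measured, with sums of 0.592 and 1.41 CPM and Tek and Emcn at 0. By the rule given below, Cdh1, Podxl and Csf1r were called lower as well as Gata3, and no marker was called higher. Of all measured genes 5.72% were called lower and 5.59% higher. The part of these markers in the results was not tested. In bulk samples, fewer cells of a type and less RNA per cell cannot be told apart.

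Of the 4 nuclear phosphatase genes 3 had the lowest ratios of the family, with 2.70-fold to 3.89-fold less transcript in the AI662270 library. A gene was called lower or higher when its log2 ratio (AI662270 over control, with 0.5 CPM added to each) was at least 1 in size and the exact 95% counting interval of the ratio, given in parentheses after a fold, did not include 1. By this rule 3 of the 10 members were lower, namely Dusp1, Dusp2 and Dusp5, and 0 were higher. Of all 13268 measured genes 5.72% were called lower and 5.59% higher. All members had a mean above 10 CPM, and of the 9771 genes at that level 5.05% were lower and 2.7% higher (5.25% and 3.59% of those above 5 CPM). At a 3-fold size 2 members were lower, Dusp1 and Dusp5, beside 1.97% of measured genes lower and 1.86% higher. At a 1.5-fold size 7 were lower, beside 14.3% lower and 12.9% higher, and 0 members were higher at either size. The intervals cover counting error only.

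Dusp1 (ENSMUSG00000024190, chromosome 17, 26505590 to 26508519, minus strand, in build mm10 as the deposited table gives it) encodes MKP-1, an inducible nuclear phosphatase of p38, JNK and ERK. It had 4083 counts with the control virus and 1077 with the AI662270 virus, or 269 and 69.1 CPM. Its level was thus 3.89-fold lower (3.63 to 4.16), and 1.13% of measured genes had a lower log2 ratio than its -1.95.

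Dusp5 (ENSMUSG00000034765, chromosome 19, 53529109 to 53542431, plus strand) encodes a nuclear phosphatase specific for ERK. It had 1869 counts with the control virus and 526 with the AI662270 virus, or 123 and 33.8 CPM, and was 3.64-fold lower (3.30 to 4.02). Its log2 ratio was -1.85, and its counting interval overlapped that of Dusp1.

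Dusp2 (ENSMUSG00000027368, chromosome 2, 127336159 to 127338376, plus strand), also called PAC-1, is a nuclear phosphatase known from activated lymphocytes. It had 240 counts with the control virus and 91 with the AI662270 virus, or 15.8 and 5.84 CPM. It was 2.70-fold lower (2.11 to 3.48), with a log2 ratio of -1.36, and was the least abundant of the 3. Its interval overlapped those of Dusp5 and of Dusp8 (1.79 to 2.27), a gene of another type. Overlap of separate intervals does not settle the order of 2 ratios, and that order was not tested.

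Dusp4 (ENSMUSG00000031530, chromosome 8, 34807297 to 34819894, plus strand) encodes MKP-2, a nuclear relative of MKP-1, but did not reach the 2-fold size. It had 394 counts with the control virus and 253 with the AI662270 virus, or 25.9 and 16.2 CPM. The ratio was 1.60-fold lower (1.36 to 1.88), an interval that does not reach those of Dusp1, Dusp2 or Dusp5. The nuclear genes therefore did not differ between the libraries to one extent.

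**Figure D2:**
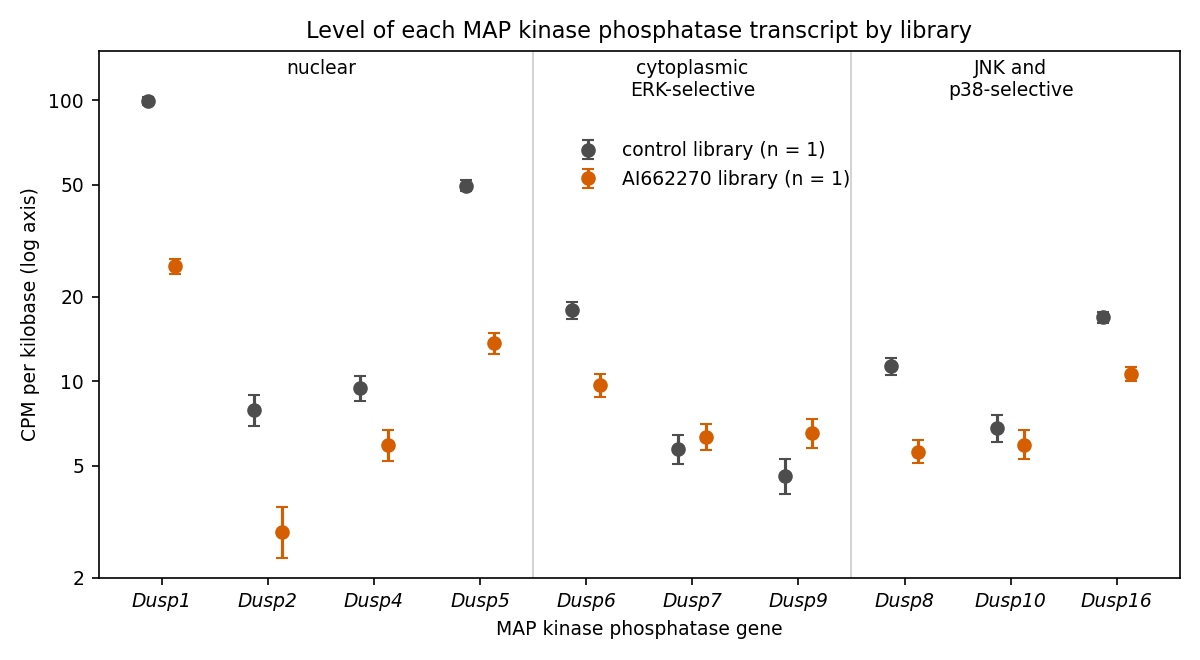
Level of each MAP kinase phosphatase transcript per kilobase of gene length (CPM per kilobase, log axis) in the control library (grey) and the AI662270 library (orange), 1 library each, with exact 95% counting intervals as bars. Dusp1 and Dusp5 lead in both libraries, and the bars of the 2 libraries overlap for Dusp7 and Dusp10.

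The cytoplasmic genes that act on ERK went different ways, and 0 of 3 passed the rule. Dusp6 (ENSMUSG00000019960, chromosome 10, 99263231 to 99267489, plus strand) encodes MKP-3, the ERK phosphatase whose transcript is a common readout of ERK activity. It had 853 counts with the control virus and 472 with the AI662270 virus, or 56.1 and 30.3 CPM, and its ratio was 1.85-fold lower (1.65 to 2.08). Dusp6 thus lay between Dusp2 and Dusp4, at a log2 ratio of -0.88, short of the size needed for a call. Its interval overlapped those of Dusp4, Dusp8 and Dusp16, and its order against them was not tested.

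Dusp7 (ENSMUSG00000053716, chromosome 9, 106368632 to 106375724, plus strand), which encodes MKP-X, had 292 counts with the control virus and 332 with the AI662270 virus, or 19.2 and 21.3 CPM. Its ratio of 1.11 had an interval from 0.945 to 1.30, so that no difference was detectable at this depth. Dusp9 (ENSMUSG00000031383, chromosome X, 73639419 to 73643514, plus strand), which encodes MKP-4, had 190 counts with the control virus and 278 with the AI662270 virus, or 12.5 and 17.8 CPM. The ratio of Dusp9 was 1.43 (1.18 to 1.73), the highest of the family and the only one of the 10 whose interval lay above 1. Across all measured genes an interval above 1 was common, at 31.9%, and one below 1 was found for 35.8%, so that the 7 members with an interval below 1 are to be read against that share.

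Of the genes whose products prefer JNK and p38, 0 of 3 were called and 2 had intervals below 1. Dusp8 (ENSMUSG00000037887, chromosome 7, 142079490 to 142095843, minus strand), known from nerve and muscle, had 838 counts with the control virus and 427 with the AI662270 virus, or 55.1 and 27.4 CPM. It was 2.01-fold lower (1.79 to 2.27) and its log2 ratio with 0.5 CPM added was -0.995, so that it lay just outside the rule and passed it with 0.1 CPM added. Dusp16 (ENSMUSG00000030203, chromosome 6, 134715468 to 134792625, minus strand), which encodes MKP-7, a phosphatase that shuttles between nucleus and cytoplasm, had 2004 counts with the control virus and 1290 with the AI662270 virus, or 132 and 82.8 CPM. Its ratio was 1.59-fold lower (1.48 to 1.71), close to that of Dusp4.

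Dusp10 (ENSMUSG00000039384, chromosome 1, 184013302 to 184075636, plus strand), which encodes MKP-5, had 315 counts with the control virus and 282 with the AI662270 virus, or 20.7 and 18.1 CPM. The ratio was 0.874 (0.741 to 1.03), and a difference was not detectable at this depth. Genes on the opposite strand overlap Dusp8, Dusp10 and Dusp16 and cannot be separated from them, since the counting is not stated to use strand. These are Gm32786 with 0 and 1 counts, 1700056E22Rik with 17 and 11 counts and Gm36328 with 0 and 2 counts, in the order control, AI662270.

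**Figure D3:**
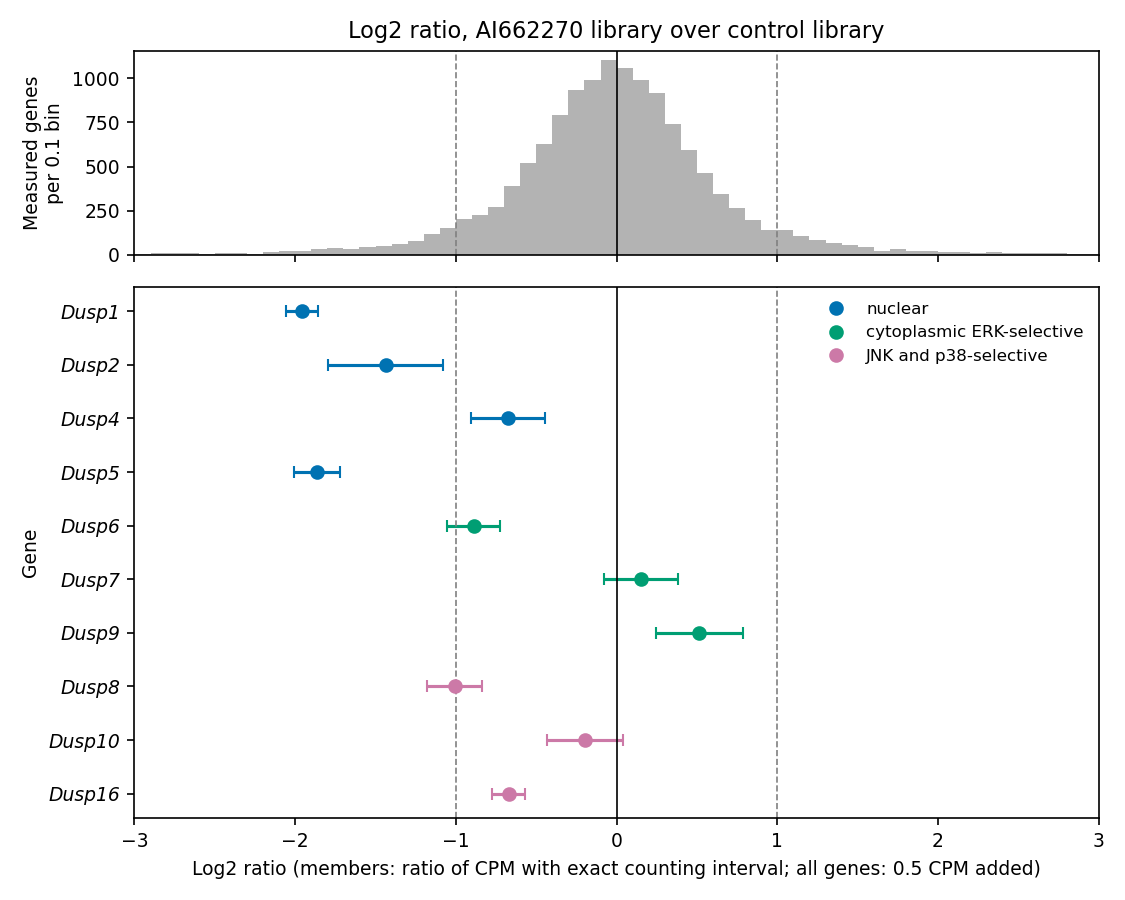
Upper panel: number of measured genes per bin of log2 ratio (AI662270 over control, 0.5 CPM added, shown from -3 to 3). Lower panel: log2 ratio of CPM of each MAP kinase phosphatase gene, coloured by type, with exact 95% counting intervals from 1 library per group. Dashed lines mark a 2-fold difference, and the intervals of Dusp1, Dusp2 and Dusp5 lie wholly beyond the lower one.

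Set side by side, the types had median log2 ratios of -1.61 for the 4 nuclear genes, 0.15 for the 3 cytoplasmic ERK-selective genes and -0.67 for the 3 JNK and p38-selective genes, beside -0.02 for all measured genes. The types overlap in these values, because Dusp4 at -0.66 lay above Dusp6 at -0.88 and Dusp8 at -0.995. The counting intervals of Dusp2 and Dusp8 overlap as well. Members are not replicates, so these medians carry no test. The counts of the nuclear genes summed to 6586 with the control virus and 1947 with the AI662270 virus, 3.47-fold lower (3.30 to 3.65). Without Dusp1 they were 2.95-fold lower (2.73 to 3.19), but most of what remained was Dusp5 (1869 and 526 counts). Of the other nuclear genes, Dusp2 was 2.70-fold and Dusp4 1.60-fold lower. The summed counts of the cytoplasmic genes were 1335 and 1082, 1.26-fold lower (1.17 to 1.37). That lower sum came from Dusp6 alone (853 and 472), since Dusp7 (292 and 332) and Dusp9 (190 and 278) had more counts with the AI662270 virus. The summed counts of the JNK and p38-selective genes were 3157 and 1999, 1.62-fold lower (1.53 to 1.71). The 10 genes lie on 10 different chromosomes.

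Levels of different genes were compared per kilobase of the gene length that the deposited table gives, in CPM per kilobase. In the control library Dusp1 was the most abundant at 99.6, above 96.8% of measured genes, followed by Dusp5 at 49.7, Dusp6 at 17.9, Dusp16 at 16.9 and Dusp8 at 11.3. Dusp4 at 9.46, Dusp2 at 7.88, Dusp10 at 6.81, Dusp7 at 5.72 and Dusp9 at 4.59 followed. Counting intervals of neighbours in this order overlapped for Dusp6 and Dusp16 and for each successive pair from Dusp4 to Dusp9. The order of those neighbours was not tested. In the AI662270 library Dusp1 at 25.6 and Dusp5 at 13.7 again led, ahead of Dusp16 at 10.6 and Dusp6 at 9.67, which overlapped. A group of Dusp9 at 6.55, Dusp7 at 6.35, Dusp10 at 5.95, Dusp4 at 5.93 and Dusp8 at 5.63 had intervals that overlapped between neighbours. Dusp2 was the lowest at 2.92, apart from Dusp8 above it.

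Dusp1 and Dusp5 took a smaller share of the family's transcripts in the AI662270 library. Summed over the 10 genes, the level per kilobase was 229.9 with the control virus and 92.9 with the AI662270 virus, 2.47-fold lower. The nuclear genes made up 72.5% of this sum with the control virus and 51.8% with the AI662270 virus. Dusp1 alone went from 43.3% to 27.6% and Dusp5 from 21.6% to 14.7%. With the longer exon union of GENCODE M21 as its length, Dusp1 went from 38.4% to 23.7%. The cytoplasmic ERK-selective genes made up 12.3% with the control virus and 24.3% with the AI662270 virus, and the JNK and p38-selective genes 15.2% and 23.9%. The share of Dusp9 was 1.997% and 7.06%, and that of Dusp7 2.49% and 6.83%. These shares depend on each other, since a smaller part of Dusp1 leaves a larger part to all others. As a share of the family's raw counts, with no length in it, Dusp1 held 36.9% (35.96 to 37.8, exact binomial interval) with the control virus and 21.4% (20.3 to 22.6) with the AI662270 virus.

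**Figure D4:**
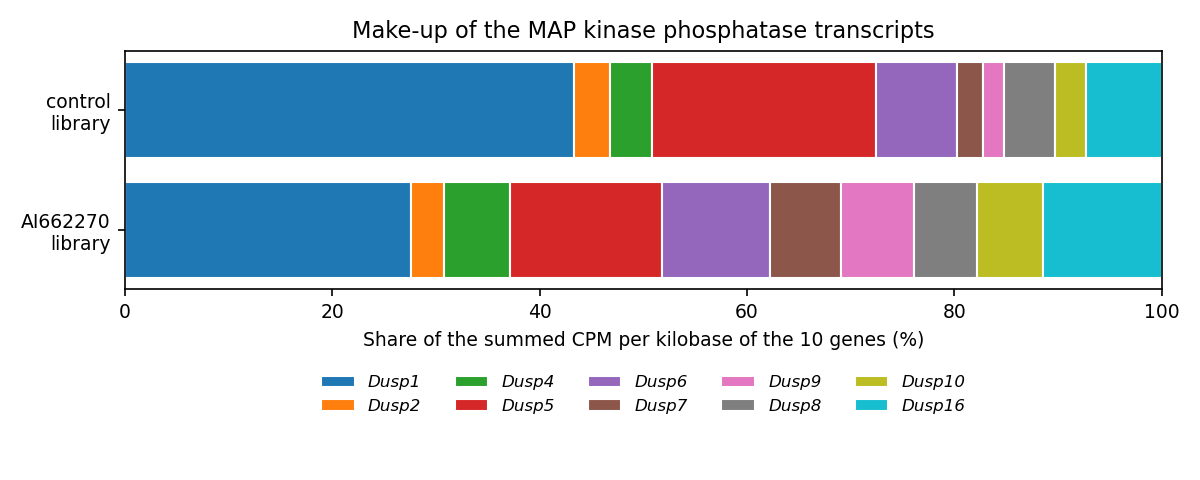
Share of each MAP kinase phosphatase gene in the summed CPM per kilobase of the 10 genes (percent), in the control library (upper bar) and the AI662270 library (lower bar), 1 library each. The segments of Dusp1 and Dusp5 are shorter in the lower bar, where the 4 nuclear genes end at 51.8% and not at 72.5%.

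The authors' deposited table, which sets 1 library against 1 library, lists 3 members with an adjusted p-value under 0.05, all of them lower. In the authors' deposited table these are Dusp1 with a log2 fold change of -1.96 and an adjusted p of 0.000362, Dusp5 with -1.86 and 0.000927, and Dusp2 with -1.43 and 0.0407. At this threshold the same source lists 2.13% of 20667 genes as lower and 2.21% as higher. Dusp8 had an adjusted p of 0.203 and Dusp6 of 0.309 in the authors' deposited table. A p-value from 1 library per group cannot reflect the spread between cultures.

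The lists that follow are to be read against the 5.72% of all measured genes called lower and the 5.59% called higher. Of 13 measured MAP kinase genes 0 were called, and their median log2 ratio was -0.07, or 0.03 when libraries were scaled by total counts. Mapk14, which encodes p38alpha, was at 2491 and 2792 counts (log2 ratio 0.13). Mapk3 for ERK1 and Mapk8 for JNK1, picked after their values were seen as further main substrates, had log2 ratios of -0.03 and -0.07. Of 7 MAP kinase kinase genes 1 was higher and 0 lower, with a median of -0.22. It was Map2k6, which encodes MKK6, an activator of p38, with 29 and 102 counts, 3.43-fold higher (2.25 to 5.38), and its mean lay under 5 CPM. Of 21 measured RAF and MAP3 kinase genes 0 were called, with a median of -0.12, and the most abundant, Taok1 and Map3k7, had log2 ratios of -0.20 and 0.01.

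Upstream, 1 of 15 genes of RAS proteins and adaptors was lower and 0 higher, with a median of -0.09 that was 0.01 when libraries were scaled by total counts. It was Sos2, a nucleotide exchange factor for RAS, with 1568 and 666 counts, 2.41-fold lower (2.20 to 2.65). Of 9 measured scaffold genes 0 were called, with a median of -0.17, and the most abundant, Iqgap1 and Pea15a, had log2 ratios of -0.17 and 0.44. Among 10 measured kinases downstream of MAP kinases 1 was higher, with a median of 0.27. It was Mknk2, which encodes a kinase of the translation factor eIF4E, with 1498 and 3142 counts, 2.05-fold higher (1.92 to 2.18).

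Phosphatases outside the family were taken from 2 lists. Of 11 measured atypical dual specificity phosphatase genes, which lack the kinase-binding domain of the family, 1 was higher and 0 lower, and the median of 0.08 was -0.09 at a mean of at least 5 CPM and -0.01 with no minimum. The higher one was Dusp23, with 3 and 42 counts, a ratio of 13.7 (4.37 to 68.9). It reached the minimum of 1 CPM only through the AI662270 library (0.197 and 2.70 CPM), and 0 genes of the list were called at a minimum of 5 CPM. Of 8 other measured phosphatases that act on MAP kinases 1 was higher and 1 lower, with a median of 0.12. Ptpn7, a tyrosine phosphatase of ERK and p38 known from blood cells, went from 29 to 160 counts, a level 5.38-fold higher (3.61 to 8.30). Ppm1a, a serine and threonine phosphatase, went from 3221 to 1470 counts, a level 2.25-fold lower (2.11 to 2.39). Ppm1a and Sos2 lie on chromosome 12, whose 477 measured genes had -0.35 as their median log2 ratio, and the part of this in their values was not tested.

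Transcripts that ERK signalling is known to raise included many called lower. Among the 14 measured ERK output genes the rule called 7 lower and 0 higher (median log2 ratio -1.03), beside 5.72% and 5.59% of all measured genes. The counts of Spry4, a feedback inhibitor of the pathway, were 416 and 73, a 5.84-fold lower level (4.54 to 7.60). The transcription factor gene Egr1 was 20.6-fold lower (19.6 to 21.7). Fosl1, which encodes an AP-1 subunit, had a level 3.53-fold lower (3.26 to 3.82), and the receptor gene Epha2 one 3.04-fold lower (2.89 to 3.19). Among 18 genes of transcription factors that include those known to act on DUSP promoters, the rule called 4 lower and 0 higher (median -0.39), or 3 lower when libraries were scaled by total counts, where Ets2 was at -0.98 and not called. They were Fos at 23.8-fold lower (19.96 to 28.5), Atf3 at 7.69-fold lower (7.17 to 8.25), Jun at 4.58-fold lower (4.27 to 4.92) and Ets2 at 2.11-fold lower (1.997 to 2.23). Fos also lies on chromosome 12, and reads of Jun cannot be told from those of the antisense gene Junos. Srf, which encodes the CArG box factor, and Creb1, which encodes a CRE factor, were not called, with log2 ratios of -0.66 and -0.60, and both were picked after their values were seen.

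**Figure D5:**
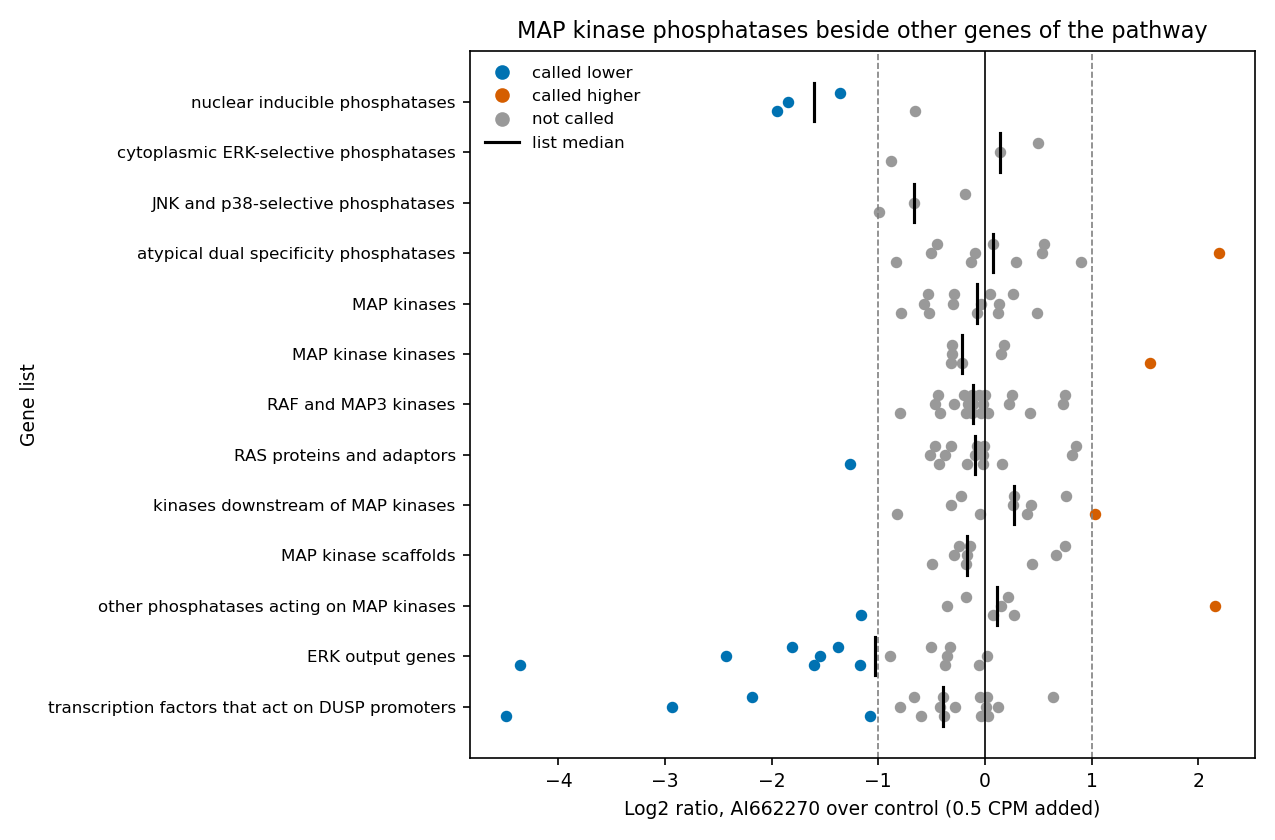
Log2 ratio (AI662270 over control, 0.5 CPM added) of each measured gene in 13 lists of the MAP kinase pathway, 1 dot per gene and 1 library per group, coloured by the rule of size, with a bar at each list's median. The MAP kinases and the RAF and MAP3 kinases hold no called gene, while called genes of the nuclear phosphatases, the ERK output genes and the transcription factors all lie on the lower side.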

How the data were processed

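Per the submitters' processing notes, reads were processed with CASAVA 1.4, TopHat2 and build mm10, whereas the read counter, the annotation release and any use of strand were not given in the sources used here. The deposited count columns hold whole reads per gene without normalization, judged from the values. The column named Lv_Con was taken as the control sample Lv_NC. The deposited FPKM columns equal counts divided by the deposited gene length and by 1 divisor (15391166) in both libraries and were used only for that check. The deposited signal columns, counts rescaled by the authors, played no part. Log2 fold changes and p-values of members were quoted from the authors' deposited comparison. A second deposited table was not used.

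Libraries were scaled with TMM in edgeR 4.0.16 (R 4.3.3), with factors of 0.967 (control) and 1.03 (AI662270). CPM, ratios and exact Clopper-Pearson intervals (95%) were computed in Python 3.11.15 with scipy 1.17.1. The call rule was also run on simulated counts with known folds. These were drawn with counting error only, so that run cannot speak to the spread between cultures. The labels name no molecular identifiers, so intervals and the floor of 3 counts cover counting error only. Loci and exon lengths were compared with GENCODE M21 (53325 of 54409 identifiers had the same length there). Members and lists were chosen with earlier results of these data known. Named genes are all 10 members, up to 4 called genes per list with the largest log2 ratios or else the 2 most abundant, and genes that overlap a member. Some genes that this rule or the marker lists would name are not reported here. Protein sequences were not used here. Alternatives were other scalings (total counts, DESeq2 1.42.0 size factors, upper quartile), pseudocounts, minimum levels, fold thresholds and gene lengths.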

Additional observations from a re-analysis of the deposited data

How the results depend on the processing

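No paired analysis was possible because each group held 1 library, and leaving out a library was not possible for the same reason. Dusp1, Dusp2 and Dusp5 were called lower in every setting except the 3-fold threshold, which Dusp2 did not pass. The log2 ratio of Dusp1 ranged from -1.96 to -1.85, that of Dusp5 from -1.86 to -1.75 and that of Dusp2 from -1.42 to -1.18 over scalings and pseudocounts, and 0 of the 10 members changed sign. The 4 members called with 0.1 CPM added, all lower, included Dusp8, whose log2 ratio was then -1.01. In that setting 857 of all 13268 measured genes were lower and 867 higher. With 2 CPM added, the median of the nuclear genes was -1.49.

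At a 1.5-fold threshold, 7 members were lower, namely all but Dusp7, Dusp9 and Dusp10. Of all measured genes 14.3% were lower and 12.9% higher at this size. At that threshold the counts were 1 lower and 2 higher for atypical phosphatases, 1 lower and 0 higher for MAP kinases, 1 lower and 2 higher for RAF and MAP3 kinases, 1 lower and 2 higher for RAS proteins and adaptors, 1 lower and 2 higher for kinases downstream, 0 lower and 2 higher for scaffolds, 8 lower and 0 higher for ERK output genes, and 7 lower and 1 higher for the transcription factors. At a 3-fold threshold 0 MAP kinase kinases and 0 downstream kinases were higher. At that size 0 RAS proteins and adaptors, 0 other phosphatases and 4 ERK output genes were lower. The shares of all measured genes were then 1.97% lower and 1.86% higher. With 0.1 CPM added 2 atypical phosphatases were higher, beside 867 of all 13268 measured genes. At a mean of at least 5 CPM 0 atypical phosphatases and 0 MAP kinase kinases were higher, beside 3.59% of all genes at that level. Over all genes, 400 were higher with 2 CPM added and 391 at a mean of at least 5 CPM, against 742.

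The exon union of GENCODE M21 is 3311 bases for Dusp1, where the deposited length is 2697, and equals the deposited length for the other 9 members. With it the share of Dusp1 was 38.4% with the control virus and 23.7% with the AI662270 virus. Total count scaling moved the median of all measured genes by 0.096. Depth limits Dusp2 most, which had 91 counts in the AI662270 library.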

Other observations

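The members differ in gene structure. Their coding transcripts in GENCODE M21 have 3 to 7 exons. The genes of Dusp1 and Dusp2 span 2930 and 2218 bases in the deposited table, against 77158 for Dusp16 and 62335 for Dusp10. The span of Dusp1 depends on the annotation, since GENCODE M21 places that gene at 26505590 to 26562128, a much longer stretch. The pentamer ATTTA, the core of the AU-rich elements through which many early response transcripts are known to be degraded, was counted in the 3′ untranslated region of the transcript with the longest coding sequence, a feature picked after the values were seen. It occurred in 9 of the 10 members, all but Dusp7, and in 66.6% of 11681 measured coding genes. The median length of this region was 989 bases in those genes, and all members but Dusp1 and Dusp2 had a longer one. These shares were not adjusted for length. Dusp1 and Dusp2 had 4 copies each in 690 and 581 bases, Dusp8 had 5 in 2370 bases and Dusp5 had 1 in 1109 bases. The longer form TATTTAT occurred in Dusp1 (3 copies), Dusp8 (2 copies) and Dusp2 (1 copy), 3 of the 10 members, and in 28.2% of the measured coding genes. Of the 3 genes called lower, Dusp5 thus lacked the longer form.

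The neighbourhoods of the members had medians from -0.06 (Dusp4) to 0.21 (Dusp7). Within 1 Mb on either side of Dusp1, the median log2 ratio of 49 measured genes was -0.01, with 0 called lower and 1 higher. Around Dusp2, 22 genes had a median of -0.02 with 1 called lower, and around Dusp5, 11 genes had a median of 0.12 with 2 lower and 3 higher. These counts stand beside 5.72% of all measured genes called lower and 5.59% called higher, and the larger part around Dusp5 was not tested. The 35 neighbours of Dusp9 had a median of -0.02, where Dusp9 itself was at 0.50, and the 23 neighbours of Dusp7 had a median of 0.21, where Dusp7 was at 0.15.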
